A study of Mus musculus with 9 samples.

Results

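The immediate early genes of neuronal activity Fos, Fosb, Junb, Egr1, Egr2, Arc, Npas4, Nr4a1, Ier2 and Dusp1 were followed in whole-brain RNA-seq libraries of 9 mice. These 10 genes were found by symbol among the 53465 genes of the deposited count and FPKM tables, and all 10 were among the 18501 genes with enough counts to be tested. All mice were male C57BL/6, 7 weeks old at the start, and each of the 3 groups held 3 mice with 1 library per mouse. Control mice (CON) ate standard chow, were not made diabetic and received saline. Mice of the diabetic neuropathic pain group (DNP) ate a 60% fat diet for 4 weeks, were then injected with streptozotocin, which kills insulin-making cells, given at 50 mg/kg daily for 7 days, and later saline. Mice of the baclofen group (BAC) had the same diet and streptozotocin and then baclofen, a drug that activates GABA-B receptors, given at 8 mg/kg daily for 7 days. Brains of all 3 groups were collected under deep anesthesia after behavioral testing. The comparison of DNP with CON addressed the diabetic pain model, that of BAC with DNP the drug, and that of BAC with CON what remained different under the drug.

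Immediate early genes are transcribed within minutes of strong synaptic input, without new protein synthesis, and their RNAs are short-lived. Calcium entry through NMDA receptors and voltage-gated channels, together with the MAP kinase cascade, activates the DNA-bound factors CREB, SRF and MEF2, which switch on these genes. Their level in a brain is widely used as a mark of recent neuronal firing, and it is also known to differ between brain regions, with high basal levels in the cerebral cortex and low ones in the brainstem.

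Promoter windows of 7 of the 10 genes (Fos, Fosb, Junb, Egr2, Npas4, Nr4a1 and Dusp1) were matched by symbol in RefSeq tables for GRCm38.p6. They are shown for 5 genes because CREB and SRF are the known activators of this class of genes, and only bases outside annotated exons are printed. Each sequence runs 5′ to 3′ on the strand of the gene and starts 250 bases before the transcription start. Capitals mark TGACG, the core of the cyclic AMP response element (CRE) bound by CREB, in either direction (CGTCA on the printed strand), and its full palindrome TGACGTCA. In Fos they also mark the TATA box TATAAA, and in Egr2 the CArG box, the element bound by SRF. The Fos window is chr12:85473640-85473889 (plus strand) and the Junb window is chr8:84978749-84978998 (minus strand), both just upstream of the annotated gene. Those of Egr2 (chr10:67537619-67537868, plus strand), Nr4a1 (chr15:101266596-101266845, plus strand) and Dusp1 (chr17:26508520-26508722, minus strand) lay inside the annotated genes, in introns of longer transcripts, before an internal start.
Fos: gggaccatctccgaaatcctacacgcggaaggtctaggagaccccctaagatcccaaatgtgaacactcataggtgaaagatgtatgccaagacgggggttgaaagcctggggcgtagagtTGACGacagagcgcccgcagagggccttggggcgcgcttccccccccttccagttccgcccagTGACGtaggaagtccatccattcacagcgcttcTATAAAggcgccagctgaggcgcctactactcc
Junb: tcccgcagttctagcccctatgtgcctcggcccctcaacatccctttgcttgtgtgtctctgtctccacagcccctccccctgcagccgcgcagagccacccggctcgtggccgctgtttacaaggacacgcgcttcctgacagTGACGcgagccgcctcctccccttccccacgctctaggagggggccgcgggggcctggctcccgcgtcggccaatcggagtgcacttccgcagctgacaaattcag
Egr2: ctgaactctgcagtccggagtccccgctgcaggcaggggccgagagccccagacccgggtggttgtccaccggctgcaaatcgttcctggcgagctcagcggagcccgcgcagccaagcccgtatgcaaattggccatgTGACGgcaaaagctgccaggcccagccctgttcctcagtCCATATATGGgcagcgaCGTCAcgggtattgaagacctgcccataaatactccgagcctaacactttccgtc
Nr4a1: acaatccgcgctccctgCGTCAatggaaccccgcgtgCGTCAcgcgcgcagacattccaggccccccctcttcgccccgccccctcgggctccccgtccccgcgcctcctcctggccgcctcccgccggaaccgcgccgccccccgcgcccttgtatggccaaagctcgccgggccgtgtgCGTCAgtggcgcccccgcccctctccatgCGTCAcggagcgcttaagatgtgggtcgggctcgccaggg
Dusp1: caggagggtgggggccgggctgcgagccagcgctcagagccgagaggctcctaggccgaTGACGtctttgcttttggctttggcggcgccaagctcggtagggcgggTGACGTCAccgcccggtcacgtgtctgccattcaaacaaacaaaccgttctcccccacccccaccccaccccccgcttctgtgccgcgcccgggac

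The 7 genes had 11 windows of 250 bases before a listed start, 5 of them for Egr2 and 1 for each other gene. TGACG in either direction was in 9 of the 11 windows, against 17.8% of the 32851 mouse promoter windows in the table. Counted by gene, all 7 had it in at least 1 window, against 19.8% of the 27025 genes in the table, and 2 of the Egr2 windows held none. Dusp1 held the full palindrome TGACGTCA at positions -143 to -136, a motif in 1.55% of all windows. In Fos the 2 copies of TGACG began at positions -129 and -66, ahead of a TATA box at -33 that 12.4% of windows share. Egr2 carried the CArG match CCATATATGG at -72 to -63, and 1.47% of all windows had a CArG box. Of the 7 genes only Egr2 had a CArG box in any window, and only Fos had the TATA box. Counted by gene, 1.62% of all genes in the table had a CArG box and 14.3% the TATA box. The AP-1 site TGANTCA (6.75% of windows) and the EGR site GCGTGGGCG (0.536%), searched on both strands, were in none of the windows of the 7 genes. A match is a description of the letters and not a measured binding site.

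Library totals were 13107382 to 16008129 counts, and levels are given as CPM, counts scaled to a common library size after TMM normalization. Libraries labelled whole brain differed widely in markers of brain regions. Summed over 9 brainstem and spinal cord markers (Hox genes, Slc6a5 and Glra1 among them), CPM was 391 to 427 in DNP 1, BAC 1 and BAC 3 and 0.263 to 29.4 in the other 6 libraries, where 4 to 7 of the 9 markers had no count. The 9 cerebellar markers summed to 5620 CPM in CON 2 and 2880 CPM in BAC 1, and to 40.9 to 42.5 CPM in DNP 2, DNP 3 and BAC 2. Mean log2 levels of 8 cerebral cortex markers, such as Tbr1 and Cux2, lay below the 9-library mean in CON 2, DNP 1, BAC 1 and BAC 3 (-0.47 to -2.23) and above it in the other 5 (0.53 to 1.56). Lamp5 in this list differed, with its highest value in DNP 1 (185 CPM) and with 109 CPM in BAC 1 and 121 CPM in BAC 3, against 107 CPM in BAC 2. Its lowest value was in CON 2, at 17.3 CPM. The 8 striatum markers summed to 924 to 1690 CPM in CON 1, DNP 2, DNP 3 and BAC 2. In the other libraries they summed to 193 to 405 CPM. The 5 olfactory bulb markers summed to 291 CPM in DNP 2 and 89.3 CPM in BAC 2, against 11.5 to 24.7 CPM elsewhere. By their sum, 6 general neuronal markers stayed at 3920 to 5930 CPM in every library, but single markers varied more. Syt1 ran from 422 CPM in BAC 1 to 1700 CPM in CON 1, and Nefl from 247 CPM in CON 2 to 1400 CPM in DNP 1. The region values are set beside the results below because several of the 10 genes followed them.

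The AP-1 subunits are leucine-zipper proteins that bind DNA as Fos-Jun pairs. Fos, on chromosome 12 (85473890-85477273, plus strand), was at 33.3, 46.0 and 67.6 CPM in CON 1 to 3, at 27.1, 44.9 and 19.8 CPM in DNP 1 to 3, and at 6.32, 25 and 24.8 CPM in BAC 1 to 3. All BAC libraries were below all CON libraries, whereas DNP overlapped both. BAC 1 was the lowest by far.

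Fosb (chr7:19302696-19310051, minus strand), whose stable splice form accumulates after repeated stimulation, was at 24.7, 5.70 and 33.1 CPM in CON, at 6.66, 34.2 and 12.9 CPM in DNP and at 1.45, 21.8 and 4.35 CPM in BAC. The groups overlapped, and DNP 2 held the highest value. Junb (chr8:84974484-84978718, minus strand), a Jun subunit that is a weaker activator than Jun itself, was at 117, 44.0 and 152 CPM in CON, at 40.8, 138 and 80.1 CPM in DNP and at 13, 99.6 and 24 CPM in BAC. CON 2 lay with the lower DNP and BAC libraries for both genes. The annotated exons of Junb share 173 bases with Prdx2 on the other strand, and since the libraries were not strand-specific, reads from these bases cannot be told apart.

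Egr1 and Egr2 encode zinc-finger transcription factors, of which Egr1 is needed for the late phase of synaptic plasticity and Egr2 also directs myelination in Schwann cells. Egr1 was at 362, 130 and 452 CPM in CON, at 85.3, 342 and 291 CPM in DNP and at 36.9, 184 and 57.6 CPM in BAC. Egr2 (chr10:67535475-67542188, plus strand) was at 13.4, 2.57 and 19.7 CPM in CON, at 2.25, 13.4 and 4.53 CPM in DNP and at 0.218, 5.45 and 0.315 CPM in BAC. In both genes CON 2 was lower than every CON and DNP library except DNP 1, and 2 of the 3 BAC libraries were lower than all others. The Egr2 value of BAC 1 rests on 3 counts, with an exact Poisson 95% interval of 0.0449 to 0.637 CPM that covers counting error only.

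Npas4 (chr19:4984355-4990316, minus strand) encodes a bHLH-PAS factor that depends on calcium influx and recruits inhibitory synapses onto active neurons. It was at 39.5, 16.5 and 28.5 CPM in CON, at 9.20, 45.5 and 20.1 CPM in DNP and at 4.43, 22.6 and 7.12 CPM in BAC. Nr4a1 (chr15:101254269-101274795, plus strand), an orphan nuclear receptor, was at 130, 59.9 and 219 CPM in CON, at 36.6, 162 and 102 CPM in DNP and at 15.0, 92.1 and 23.7 CPM in BAC. For both genes BAC 2 lay inside the range of CON and the other BAC libraries lay below it.

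Arc (chr15:74669083-74672570, minus strand) encodes a protein that drives removal of AMPA receptors from synapses. It was at 194, 53.0 and 347 CPM in CON, at 42.7, 209 and 148 CPM in DNP and at 20.5, 84.7 and 29.3 CPM in BAC. CON 2 was nearer to the BAC libraries than to CON 1 or CON 3, and all groups overlapped.

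Ier2, a nuclear protein induced by growth factors, and Dusp1, a phosphatase that switches off MAP kinases and is also induced by glucocorticoids, showed another order. Ier2 (chr8:84661331-84662852, minus strand) was at 13, 31 and 20.4 CPM in CON, at 10.1, 16 and 10.6 CPM in DNP and at 8.14, 10.5 and 8.88 CPM in BAC. Its BAC values were all below CON, and DNP overlapped both groups. Dusp1 (chr17:26505590-26562128, minus strand) was at 55.5, 78.5 and 73.5 CPM in CON, at 42.3, 42.6 and 35.3 CPM in DNP and at 23.7, 40.5 and 31.7 CPM in BAC. It was the only one of the 10 genes whose CON libraries were all above every DNP and every BAC library. Its exons share only 11 bases with Ergic1 on the other strand. CON 2, low in Egr1 and Arc, was the highest library for Ier2 and Dusp1.

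**Figure D1:**
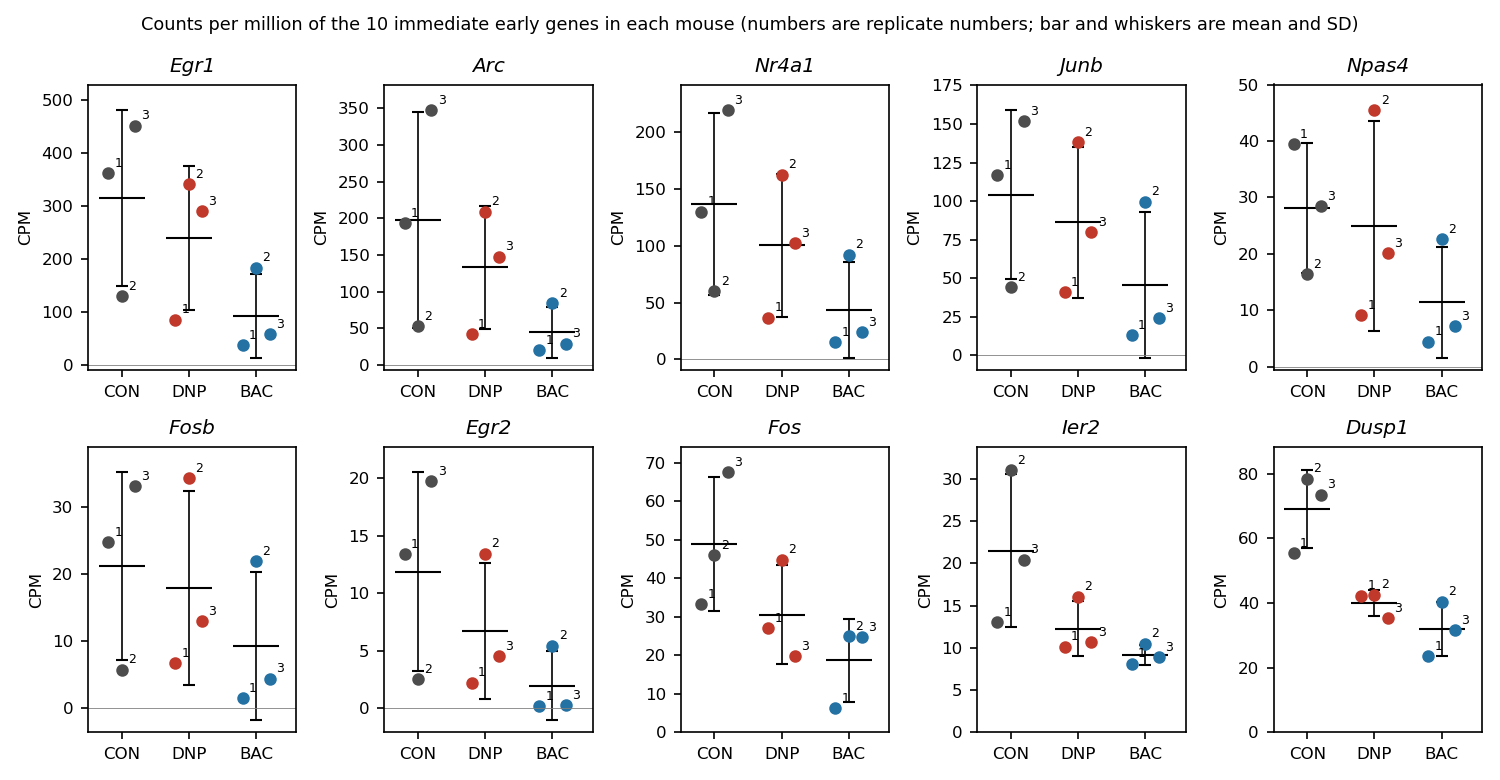
Level of each of the 10 genes (CPM, linear axis from 0, 1 panel per gene) in the 3 CON, 3 DNP and 3 BAC libraries, with replicate numbers beside the points and the group mean and SD as bar and whiskers. For Egr1, Arc, Nr4a1, Junb, Npas4, Fosb and Egr2 replicate 2 is the lowest of CON, replicate 1 the lowest of DNP and replicate 2 the highest of BAC, while the CON libraries of Dusp1 (55.5 to 78.5 CPM) lie above all 6 others (23.7 to 42.6 CPM).

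Group means reflect this spread. Egr1 averaged 315 ± 166 CPM in CON, 239 ± 136 CPM in DNP and 92.7 ± 79.5 CPM in BAC (mean ± SD of 3 mice, as below). Arc averaged 198 ± 147, 133 ± 84.3 and 44.9 ± 34.8 CPM, and Fos 48.9 ± 17.3, 30.6 ± 12.9 and 18.7 ± 10.7 CPM in the same order. The SD was much smaller relative to the mean for Dusp1, at 69.2 ± 12.1, 40.1 ± 4.11 and 31.9 ± 8.39 CPM. All 10 genes had their highest mean in CON and their lowest in BAC. Because RNA of a whole brain was pooled, fewer expressing cells and less RNA per cell cannot be told apart.

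Levels of different genes were compared as CPM per kilobase of annotated exons. In CON Egr1 was highest at 70.2 ± 37.1 CPM per kb, followed by Arc (64.8 ± 48.2), Junb (45.3 ± 23.9) and Nr4a1 (38.9 ± 22.8). Dusp1 (20.9 ± 3.66), Fos (20.8 ± 7.37) and Ier2 (14.1 ± 5.95) were intermediate, and Npas4 (6.81 ± 2.78), Egr2 (3.50 ± 2.56) and Fosb (3.39 ± 2.25) were lowest. None of the 9 neighbouring pairs in this order differed beyond their spread, since mean ± SD overlapped in each. The order was nearly the same in BAC, where Egr1 stood at 20.7 ± 17.7 and Egr2 at 0.587 ± 0.882 CPM per kb. The deposited FPKM values use another length, which exceeds the whole annotated locus for 4 of the 10 genes, and were not used for the order.

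The variation between mice of the same group set 7 of the 10 genes apart from most of the transcriptome. The within-group SD of log2 CPM was 1.71 for Egr2, 1.51 for Fosb, 1.22 for Arc, 1.14 for both Nr4a1 and Junb, 1.09 for Egr1 and 1.02 for Npas4, against a median of 0.35 over all genes tested, which placed these genes between the 92.2nd and the 98.3rd percentile. Fos stood at 0.79 and Ier2 at 0.43. Dusp1, at 0.28, varied less than the median gene. The same 4 libraries, CON 2, DNP 1, BAC 1 and BAC 3, were the lowest for each of these 7 genes, and they are the 4 libraries with cortex markers below the mean. They were also the 4 lowest for the mean log2 level of 8 striatum markers, at -1.81 to -1.47 against -0.13 to 2.2 elsewhere. Cortical and striatal content cannot be told apart in this pattern. BAC 1 was the lowest library for all 10 genes. Fos, Ier2 and Dusp1 had another set of lowest libraries, with CON 2 among their highest 2.

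**Figure D2:**
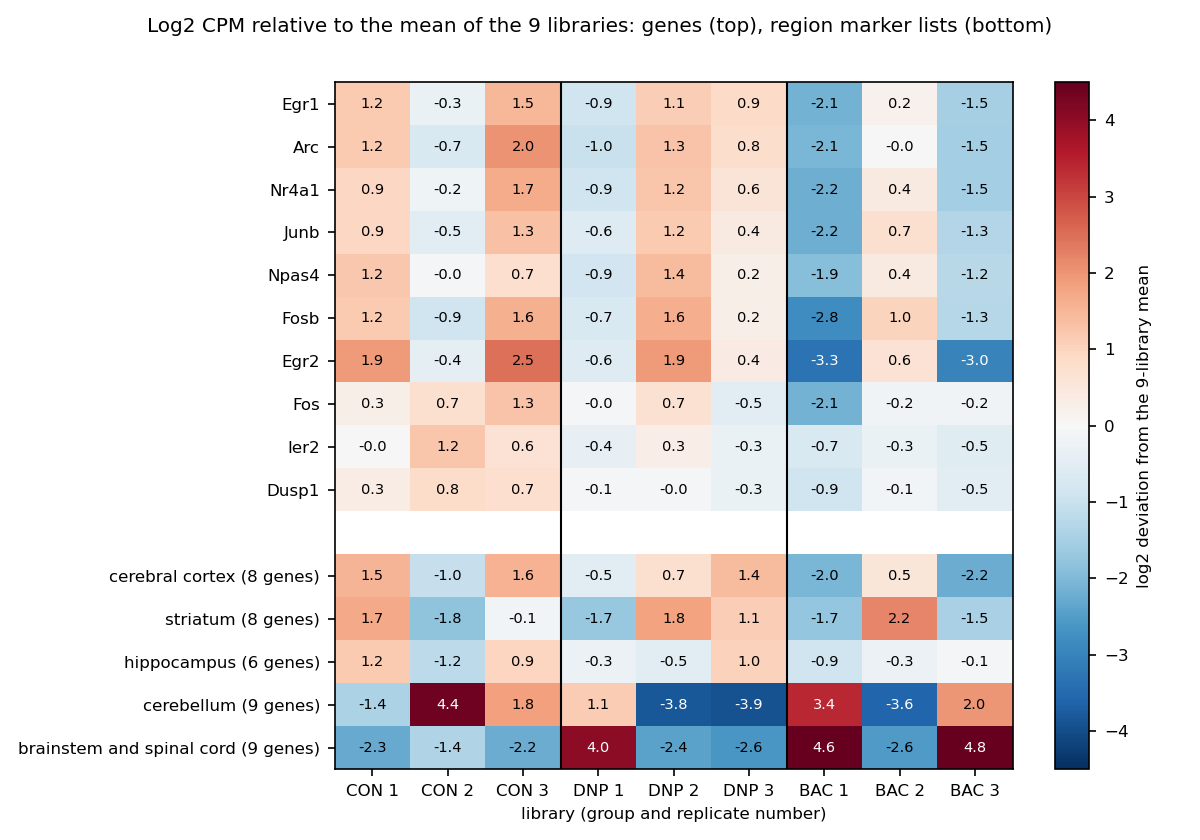
Log2 CPM of each gene (top) and mean log2 CPM of region marker lists (bottom) in the 9 libraries, each centred on its mean over the libraries, with red above and blue below the mean. The 7 upper genes, the cortex list and the striatum list share their 4 lowest libraries, CON 2, DNP 1, BAC 1 and BAC 3, while Fos, Ier2 and Dusp1 are above their mean in CON 2.

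Between mice, log2 CPM of Fos was correlated with each of the other 9 genes, over 9 relations with exact permutation p-values. The relation was closest with Dusp1 (Pearson r = 0.868, exact p = 0.0022, adjusted p = 0.0137; Spearman rho = 0.95, exact p = 0.000353, adjusted p = 0.00317) and second by rank with Ier2 (r = 0.756, exact p = 0.00304, adjusted p = 0.0137; rho = 0.867, exact p = 0.00451, adjusted p = 0.0203). Without CON 3 and BAC 1, the libraries farthest from the Fos median, r over the other 7 libraries was 0.743 for Dusp1 and 0.829 for Ier2, with no test. The other 7 genes had r from 0.693 (Arc) to 0.757 (Nr4a1) with exact permutation adjusted p = 0.0326, but without those libraries r was 0.191 to 0.435, so these relations rest on them. None of the 7 passed by rank (smallest exact permutation adjusted p = 0.0856). Without BAC 1 alone, no relation passed after adjustment, and r was 0.82 for Dusp1 and 0.42 for Fosb. Within groups, after the group means were removed, r was 0.829 for Dusp1, 0.656 for Fosb, 0.61 for Junb and 0.573 for Nr4a1. Ier2, at 0.489, lay below these and below Npas4 (0.533) and Egr2 (0.524), and above Egr1 (0.475) and Arc (0.455).

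In DNP versus CON all 10 genes had lower fitted means in DNP, and none passed the test after adjustment (edgeR quasi-likelihood test with Benjamini-Hochberg adjustment over 18501 genes, where 0.00% of genes passed). Dusp1 was 0.58-fold of CON, a log2 fold change of -0.79 (SE 0.22, 95% confidence interval -1.29 to -0.29), with an unadjusted p of 0.00637 and an edgeR adjusted p of 0.325. For Ier2 the log2 fold change was -0.81 (SE 0.32), with an unadjusted p of 0.0356 and an edgeR adjusted p of 0.416. The other 8 genes lay between -0.82 (Egr2) and -0.18 (Npas4), with intervals as wide as -3.46 to 1.82 for Egr2, so that neither a halving nor no difference lies outside the error. The median of the 10 log2 fold changes was -0.51, against 0.01 over all genes.

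At an unadjusted p under 0.05, 2 of the 10 genes were lower in DNP, where 5.46% of all genes were, and only Dusp1 had groups that did not overlap, as 8.63% of genes did in the lower direction. Leaving out a single library could change the direction of Fosb, Junb, Egr1, Arc, Npas4 and Nr4a1. Fos (-1.07 to -0.38), Egr2 (-1.81 to -0.25) and Ier2 (-1.07 to -0.45) stayed below CON in each of these fits. Without CON 3, 6 of 10 genes were lower, with Fosb at 0.23, Arc at 0.11, Junb at 0.10 and Nr4a1 at 0.08, and without DNP 1, 6 of 10 were lower, with Npas4 at 0.22 and Fosb at 0.15. Npas4 was also above CON without CON 1, at 0.15. For Dusp1, leaving out any single library gave -0.92 to -0.69. DESeq2 called none of the 10 either (smallest DESeq2 adjusted p = 0.063, for Dusp1).

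In BAC versus DNP the 10 genes were again all lower in the first group of the comparison, and none passed (0.00% of all genes passed after adjustment, edgeR). Egr2 had the lowest log2 fold change at -1.75 (SE 1.22), followed by Arc at -1.57 (SE 0.82) and Egr1 at -1.37 (SE 0.74). Dusp1 was at -0.33 (SE 0.22, 95% confidence interval -0.83 to 0.17) and Ier2 at -0.42 (SE 0.33). The edgeR adjusted p was 0.998 for each of the 10. The median log2 fold change was -1.04, against -0.01 over all genes.

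No gene of the 10 was lower at an unadjusted p under 0.05 in this comparison, where 1.00% of all genes were, and none had groups that did not overlap, where 3.41% of genes were lower without overlap. This count depended on BAC 2. Without it, 8 of the 10 genes had an unadjusted p under 0.05, with a median log2 fold change of -2.28 and Egr2 at -4.61, and without DNP 1 there were 2. BAC 1 and BAC 3, which remained without BAC 2, carry brainstem markers and a low mean of cortex markers, and of the DNP libraries only DNP 1 does. The 1.00% is from the fit with 9 libraries, and the share of all genes in these refits is not given here.

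In BAC versus CON the differences were the largest of the 3 pairwise comparisons in these genes. Log2 fold changes were -2.57 (SE 1.24) for Egr2, -2.14 (SE 0.83) for Arc, -1.76 (SE 0.74) for Egr1, -1.64 (SE 0.80) for Nr4a1 and -1.39 (SE 0.53) for Fos. Npas4, Ier2, Fosb and Junb lay between -1.30 and -1.19, and Dusp1 at -1.11 (SE 0.22, 95% confidence interval -1.62 to -0.61). None passed after adjustment (edgeR adjusted p from 0.628 to 0.788, with 0.00% of all genes called). The median was -1.34, against -0.02 over all genes.

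At an unadjusted p under 0.05, 5 of the 10 genes were lower in BAC than in CON (Fos, Egr1, Arc, Ier2 and Dusp1), where 3.30% of all genes were. Groups did not overlap for Fos, Ier2 and Dusp1, that is for 3 of 10, where 6.23% of all genes were lower without overlap. The unadjusted p was 0.000813 for Dusp1, 0.00498 for Ier2 and 0.0291 for Fos. Single libraries moved the count of 5 widely. It was 2 without CON 3, 3 without CON 1, BAC 1 or BAC 3, and 10 without BAC 2. The 3.30% is from the fit with 9 libraries, and the share of all genes in these refits is not given here. DESeq2 called Dusp1 in this comparison, at a log2 fold change of -1.12 and a DESeq2 adjusted p of 0.00577. The share of all genes that DESeq2 called is not given here.

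When the DNP and BAC mice, which shared diet and streptozotocin, were set together against CON, Dusp1 was at 0.517 of CON (log2 fold change -0.95, SE 0.18, edgeR adjusted p = 0.295) and Ier2 at 0.494 (-1.02, SE 0.27, edgeR adjusted p = 0.304). Fos was at -1.03 (SE 0.44). All 10 genes were lower, with a median of -1.02 against -0.01 over all genes, and none passed (0.00% of genes called). At an unadjusted p under 0.05, 3 of the 10 were lower (5.42% of all genes), and Dusp1 alone had no overlap (3.13% of all genes, lower). Without BAC 2 the count of 3 was 9, a refit for which the share of all genes is not given here. DESeq2 called 2 of the 10, Dusp1 at -0.96 (DESeq2 adjusted p = 0.00233) and Ier2 at -1.03 (DESeq2 adjusted p = 0.0436). The share of all genes that DESeq2 called is not given here. The 4 comparisons share libraries, CON in 3 of them and DNP and BAC in 3 each, so their like directions are not separate evidence.

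**Figure D3:**
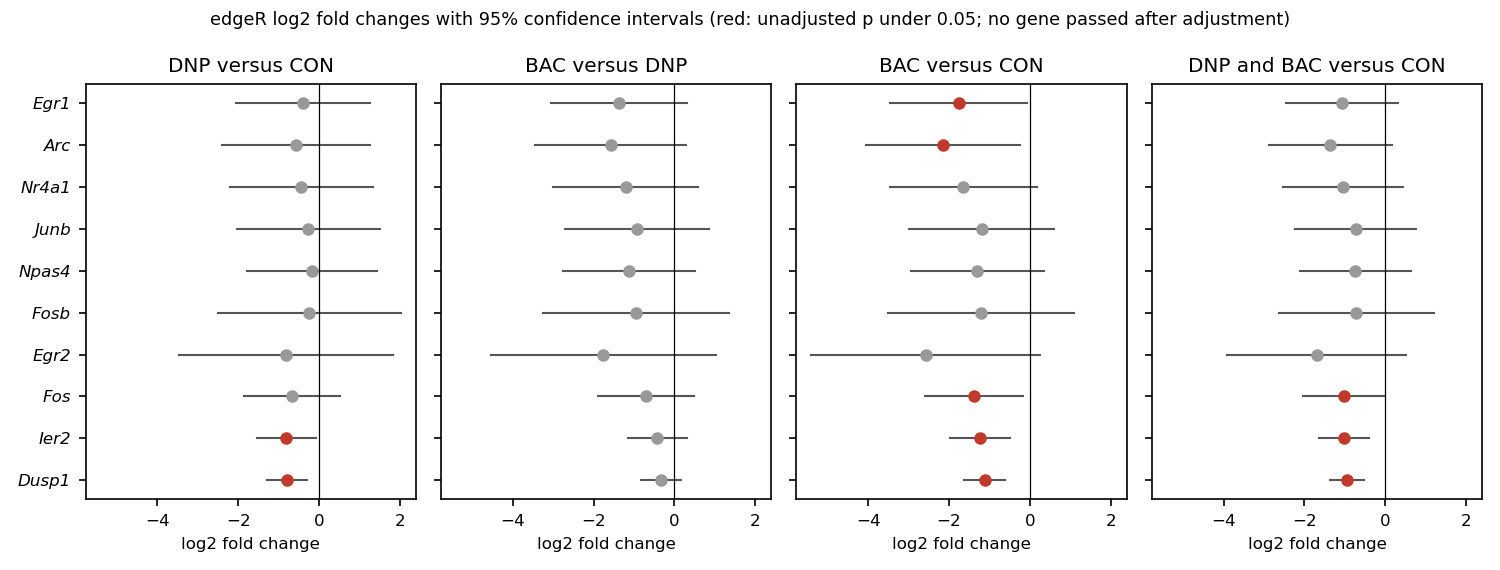
Log2 fold change (x axis) of each gene with its 95% confidence interval in the 4 comparisons, from edgeR on 9 libraries, with red points for an unadjusted p under 0.05. Every point lies left of 0, and the intervals of Dusp1 are the narrowest, at -1.29 to -0.29 in DNP versus CON and -1.62 to -0.61 in BAC versus CON.

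Because the region markers moved with the libraries, each comparison was refitted with them. With the cortex score as a covariate, BAC versus CON was -0.47 for Arc, -0.49 for Egr1, -0.45 for Nr4a1, -0.03 for Junb and 0.35 for Fosb, in place of -2.14, -1.76, -1.64, -1.19 and -1.20. Fos (-1.20), Ier2 (-1.35) and Dusp1 (-1.08) stayed near their values without the covariate, with unadjusted edgeR p-values of 0.0834, 0.00513 and 0.00241. In DNP versus CON the same covariate left Dusp1 and Ier2 at -0.79 each, while Egr1 was at -0.28 and Junb at -0.07. None of the 10 passed after adjustment in any of these fits. No fit used the striatum score, which has the same lowest libraries as the cortex score.

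Scores of the cerebellum and brainstem lists, used as covariates together, acted on other genes. Ier2 was then 0.49 above CON in DNP and 0.06 above CON in BAC on the log2 scale, and Dusp1 was at -0.38 in DNP (unadjusted p = 0.379, edgeR adjusted p = 0.718) and -0.68 in BAC. Egr1 was at -1.14 in DNP and -1.73 in BAC. Among the libraries without brainstem markers (3 CON, DNP 2, DNP 3 and BAC 2), DNP versus CON was -0.84 for Dusp1 (unadjusted p = 0.00875, edgeR adjusted p = 0.455), -0.70 for Ier2 and -0.61 for Fos, and it lay between -0.42 and 0.21 for the other 7. The single BAC library left there was at -0.78 against CON for Dusp1 and -1.23 for Arc, with its spread assumed to equal that of the other groups. Cerebellar markers still differed in this fit, at 94.4, 5620 and 885 CPM in CON 1 to 3 and 40.9 to 42.5 CPM in DNP 2, DNP 3 and BAC 2. Cerebellar content and group cannot be told apart in it. Over the 22 alternatives run, the log2 fold change of Dusp1 in DNP versus CON ranged from -0.92 to -0.38, and it was nearest to 0, with the unadjusted p of 0.379, when cerebellum and brainstem scores were in the fit.

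**Figure D4:**
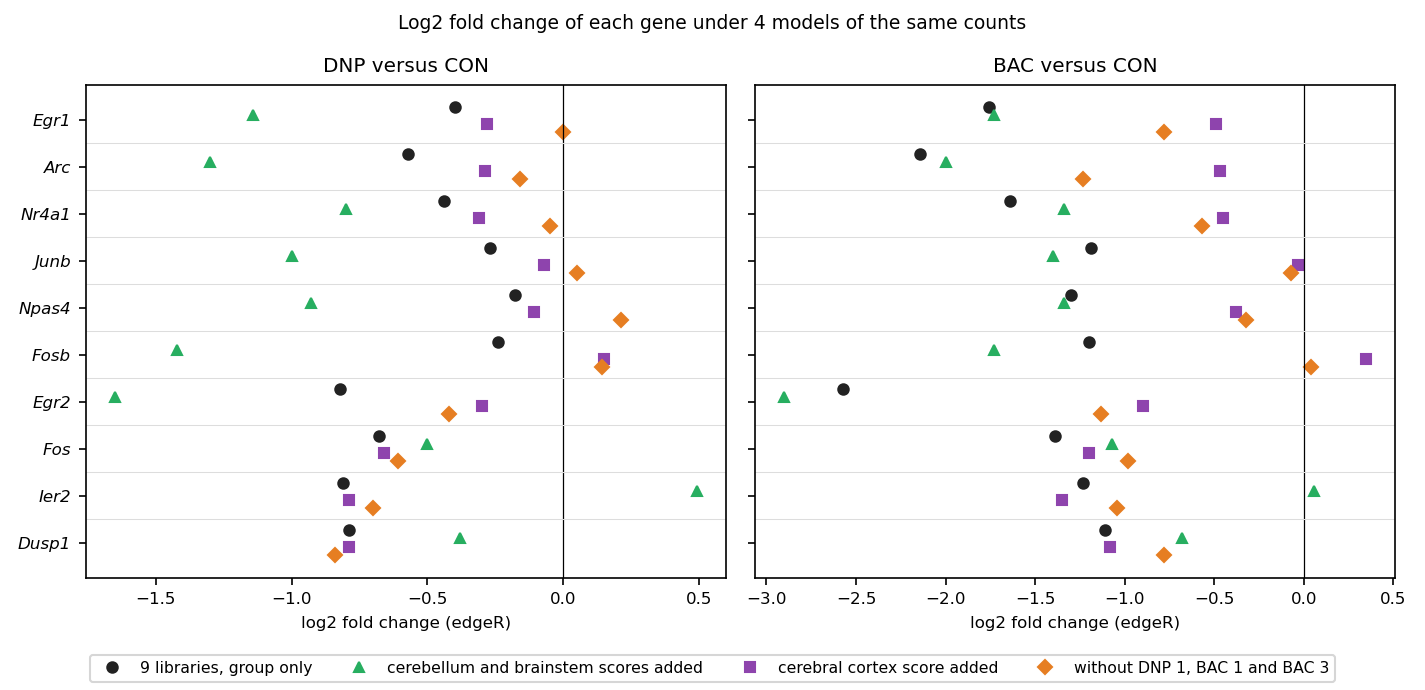
Log2 fold change (x axis) of each gene in DNP versus CON and BAC versus CON from edgeR with 9 libraries and group alone (circles), with cerebellum and brainstem scores (triangles), with the cortex score (squares) and without DNP 1, BAC 1 and BAC 3 (diamonds). In BAC versus CON the squares of Arc, Egr1, Nr4a1, Junb and Fosb lie at -0.49 to 0.35 against circles at -2.14 to -1.19, whereas those of Fos, Ier2 and Dusp1 (-1.35 to -1.08) stay close to their circles (-1.39 to -1.11).

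Other cell type lists also differed between the groups, though not in every library. The 6 oligodendrocyte markers and the 5 erythroid markers (globins and Alas2 among them) were all higher in DNP than in CON at an unadjusted p under 0.05, with median log2 fold changes of 1.29 and 1.55, where 5.71% of all genes were higher at that p. Erythroid markers summed to 188 to 218 CPM in CON and 471 to 735 CPM in the 6 diabetic libraries. Oligodendrocyte markers summed to 2110 to 2950 CPM in CON, 8910, 3540 and 6720 CPM in DNP, and 6700, 2850 and 9090 CPM in BAC. For this list BAC 2 lay inside the range of CON. Of the 6 meningeal markers, 4 were lower in DNP than in CON at that p (5.46% of all genes), and in BAC versus DNP 5 of the 6 were higher (1.37% of all genes). The meningeal list summed to 107, 132 and 138 CPM in CON, to 65.2, 70.4 and 67.5 CPM in DNP and to 137, 86.9 and 128 CPM in BAC, so that DNP lay below both other groups. Among 6 endothelial and 6 mural markers, none reached that p between DNP and CON, and Pecam1, Flt1 and Kcnj8 were lower in BAC than in DNP at that p (-0.51, -0.56 and -0.82; 1.00% of all genes). Dusp1 and Ier2 are also expressed outside neurons, and the part of these cell types in their levels was not tested.

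The remaining activity-dependent genes were read from fixed lists. Over all genes tested, 48.6% were lower and 51.4% higher in DNP than in CON, whatever the p. Among other AP-1 and ATF genes, 3 of 7 tested were lower in DNP, and 1 of them, Jun, the main partner of Fos, had an unadjusted p under 0.05 (5.46% of all genes, lower), at 61.1 to 78.3 CPM in CON and 41.6 to 55.7 CPM in DNP (log2 fold change -0.51, SE 0.17, edgeR adjusted p = 0.365). Fosl1 was at -0.71 and Maff at 0.85. Of 20 other immediate early regulators, 14 were lower, with a median of -0.30, but none of these 14 had an unadjusted p under 0.05. Klf6 was at -0.48, Bhlhe40, a repressor of the clock, at -0.47, and Myc at 0.74, the last with an unadjusted p of 0.0416. In BAC versus CON 18 of the 20 were lower (median -0.64), where 51.8% of all genes were, and 4 were lower at an unadjusted p under 0.05, where 3.30% of all genes were, among them Bhlhe40 at -0.66.

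Of 22 immediate early effector genes, 14 were lower in DNP (median -0.14), where 48.6% of all genes were lower, and 4 of them had an unadjusted p under 0.05, where 5.46% of all genes were lower. Trib1, a scaffold that promotes breakdown of transcription factors, was at 26.1, 27.7 and 34.8 CPM in CON and at 14.3, 25.1 and 19.2 CPM in DNP (log2 fold change -0.60, SE 0.22). It was lower still in BAC, at 14.7, 16 and 15.2 CPM (-0.95 against CON, SE 0.22, edgeR adjusted p = 0.628), and CON did not overlap either group. Dusp4, a nuclear phosphatase of the Dusp1 family, was at -0.64 in DNP and -0.77 in BAC against CON. Arl4d was at 1.17 in DNP against CON and at -1.16 in BAC against DNP.

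The delayed activity genes split in DNP versus CON, with 4 of 9 lower, 5 higher and a median of 0.00. Bdnf, the neurotrophin that follows the early wave, was at -0.42 in DNP and -0.77 in BAC, Sorcs3 at -0.44 in DNP, and Scg2, a granule protein, at 0.94 in DNP and 1.20 in BAC. Upstream genes of the SRF, CREB and MEF2 routes were lower in 26 of 31 cases in DNP (median -0.30), against 48.6% of all genes, and 3 of the 31 were lower at an unadjusted p under 0.05, against 5.46% of all genes. These were Ep300, a coactivator of CREB (-0.63), Camk4, a kinase that acts on CREB (-1.43), and Grin1, the obligate NMDA receptor subunit (-0.51), each without overlap with CON. Camk4 was highest in CON 2 at 760 CPM, the library rich in cerebellar markers, and was at 355 and 376 CPM in CON 1 and CON 3.

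Glucocorticoid response genes were included because Dusp1 and Ier2 respond to more than synaptic input. Of 11 such genes 9 were higher in DNP than in CON (51.4% of all genes), with a median log2 fold change of 0.71. At an unadjusted p under 0.05, 5 were higher, where 5.71% of all genes were, and 1 was lower, where 5.46% were. Plin4, a lipid droplet protein, was at 4.25 to 4.78 CPM in CON and 8.47 to 38.7 CPM in DNP (log2 fold change 2.29), and Mt1, a metal-binding protein, at 0.77. Klf9 differed from these, at 181 to 184 CPM in CON, 116 to 133 CPM in DNP and 112 to 133 CPM in BAC (-0.57, SE 0.13, and -0.55, SE 0.13, edgeR adjusted p = 0.294 and 0.628). Heat shock and stress genes showed 0 of 9 at an unadjusted p under 0.05, with Hspb1 at 0.66, Hsp90aa1 at 0.17 and Atf4 at -0.13.

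The genes most like the 10 in pattern were found by the Pearson correlation of log2 CPM with the mean centred level of the 10 over the 9 libraries, among 16773 genes. The closest was Egr4, a family member of Egr1 (r = 0.975), followed by Grm2 (0.974), Plcg1 (0.965), Irak1bp1 (0.963), Lrrc32 (0.963), Nr4a2 (0.963), Sstr3 (0.962) and Golga7b (0.959). Egr4 ranged from 3.05 CPM in BAC 1 to 84.6 CPM in CON 3, and Nr4a2, a paralog of Nr4a1, from 9.88 CPM in BAC 1 to 82.2 CPM in CON 3. Among the activity lists, Srf ranked 13th (0.954), Egr3 14th (0.954), Dusp6 15th (0.953) and Homer1 43rd (0.932). These values describe libraries that also differ in cortical and striatal content, and no test was applied to them.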

How the data were processed

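Poly(A) RNA of whole brains was read in paired-end mode from libraries that do not keep the strand. The authors checked reads with FastQC 0.11.9, filtered them with fastp, aligned them to GRCm38 with HISAT2 2.1.0 (Bowtie2 2.3.4.1 is also named) and quantified genes with StringTie 1.3.3b. The deposited counts are raw reads per gene, which were tested here, and the deposited FPKM values, made by the authors, were used only in alternatives. How reads shared by several genes were assigned is not given in the sources used here. Groups and replicate numbers came from the sample labels.

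Counts were analysed in R 4.3.3 with edgeR 4.0.16 (filterByExpr with a minimum count of 10, TMM, quasi-likelihood test, 9 libraries with group as the factor, Benjamini-Hochberg adjustment, threshold 0.05). Two-sided tests were used throughout. The edgeR test gives no SE, so SE was taken as the absolute log2 fold change divided by the square root of the F statistic. Confidence intervals were built from this SE with a t distribution and are approximate. Log2 CPM used a prior count of 2. Exons and loci were those of GENCODE M21 on GRCm38, matched by gene identifier. Alternatives were DESeq2 1.42.0, RLE factors, library totals only, other filters, limma 3.58.1 on log2(FPKM + 1) or log2(FPKM + 0.1), the compared groups only, a replicate block, region scores as covariates, and the removal of single libraries. The cortex covariate and the fits without the libraries with brainstem markers or low in cortex markers were chosen after seeing the data. The scripts were tested on simulated data.

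The 10 genes and the 25 lists (226 genes) were chosen with earlier results of these data known. Named genes were the 10, up to 3 genes per activity list with the smallest p in DNP versus CON, and the 8 genes closest to the mean of the 10. Srf, Egr3, Dusp6 and Homer1 were named after their values were seen. Some genes of the marker lists are not reported here. The study's methods give separate mice as replicates. Same-group libraries differed far beyond sampling noise (chi-square per degree of freedom 15.1 to 116), and the biological coefficient of variation was 36.5%.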

Additional observations from a re-analysis of the deposited data

How the results depend on the processing

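Over 40 fold changes (10 genes in 4 comparisons) and 22 alternatives, 856 of 880 values kept their direction and 24 did not. Depth does not limit these genes apart from Egr2 in BAC 1 and BAC 3, and the spread between mice, which the region markers share, sets the precision. With 3 mice per group and a confidence interval of -3.46 to 1.82 for Egr2 in DNP versus CON, sizable differences in either direction cannot be told from none.

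In DNP versus CON the values above 0 were 0.49 for Ier2 with cerebellum and brainstem covariates, 0.15 for Npas4 without CON 1, Fosb 0.23, Junb 0.10, Arc 0.11 and Nr4a1 0.08 without CON 3, Fosb 0.15, Junb 0.07, Egr1 0.01 and Npas4 0.22 without DNP 1, Fosb 0.15 with the cortex covariate, and Fosb 0.14, Junb 0.05 and Npas4 0.21 without the libraries with brainstem markers. Over the fits with 1 library left out, the ranges of the genes that changed direction there were -1.12 to 0.23 for Fosb, -0.79 to 0.10 for Junb, -0.77 to 0.01 for Egr1, -1.06 to 0.11 for Arc, -0.95 to 0.22 for Npas4 and -0.98 to 0.08 for Nr4a1. In BAC versus DNP they were Fosb 0.20 and Junb 0.04 with the cortex covariate, and Dusp1 0.06 without the libraries with brainstem markers and 0.07 without those low in cortex markers. In BAC versus CON they were Ier2 0.06 with cerebellum and brainstem covariates, and Fosb 0.35 with the cortex covariate and 0.04 without the libraries with brainstem markers. For diabetic versus CON the same 3 fits gave Ier2 0.27 and Fosb 0.25 and 0.09. The cause was not tested.

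DESeq2 called 1 gene in BAC versus CON (Dusp1, -1.12, adjusted p = 0.00577) and 2 in diabetic versus CON (Ier2, -1.03, adjusted p = 0.0436, and Dusp1, -0.96, adjusted p = 0.00233), where edgeR called 0. How many of all genes DESeq2 called is not given here. No other alternative called any of the 10. Counts at an unadjusted p under 0.05 moved as follows, and the share of all genes at that p in each alternative is not given here. In DNP versus CON, from 2 to 1 with limma at either pseudocount, with the compared groups only and without the libraries with brainstem markers or low in cortex markers, to 0 with cerebellum and brainstem covariates, and to 1 to 2 with single libraries left out. In BAC versus DNP, from 0 to 1 with DESeq2, to 2 without the libraries low in cortex markers, and to 0 to 8 with single libraries left out. In BAC versus CON, from 5 to 2 with cerebellum and brainstem covariates or the cortex covariate, to 1 without the libraries with brainstem markers, to 3 without those low in cortex markers, and to 2 to 10 with single libraries left out. In diabetic versus CON, from 3 to 1 with cerebellum and brainstem covariates or without the libraries with brainstem markers, and to 2 to 9 with single libraries left out. Of the 9 relations of Fos, 2 passed on log2(FPKM + 1), and 0 to 9 with single libraries left out.

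No pairing of the samples by replicate number was seen. Deviations of same-numbered libraries correlated at -0.579 to 0.56, above 0.1 in 3 of 9 pairs, and 2 of 9 libraries correlated best with their own number. These deviations also hold the differences in region markers between libraries, so the check cannot exclude a pairing. With the replicate block 0 of the 10 genes were called in each comparison, and the count at an unadjusted p under 0.05 in BAC versus CON was 8 in place of 5. The share of all genes in that fit is not given here.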
